A study of Mus musculus with 2 samples.

Results

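Goblet cells are secretory cells of the gut lining that fill and release the mucus layer. A small part of them carried RNA of at least 4 of 8 chosen genes of the interferon response. They were chosen by their own counts of unique molecular identifiers (UMIs, 1 for each captured RNA molecule). A cell had to give at least 1% of its UMIs to Muc2, Fcgbp, Clca1, Zg16 and Tff3 together and less than 5% to defensins and Lyz1, and had to hold at least 1 UMI of at least 4 of Isg15, Ifit1, Oasl2, Ifi44, Rsad2, Ddx60, Usp18 and Oas3. This selected 392 of 4172 goblet-gated cells and of 12554 cells in all: 124 of 2053 goblet cells in the wild type (WT) library and 268 of 2119 in the MG53-TG library. Because these genes chose the cells, their levels are given as a description.

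The data were 2 single-cell RNA-seq libraries of sorted epithelial cells (EpCAM-positive, 7-AAD-negative) from intestinal crypts, 1 per genotype. MG53-TG mice overexpress MG53 (the product of Trim72) in the whole body and were compared with WT littermates. Both groups had received 2.5% dextran sulfate sodium (DSS), which injures the gut lining, and cells were taken on day 7, so that no uninjured sample serves as a background. Strain, age and the promoter of the transgene are not given in the sources used here. A group size is stated for this experiment, but the sources used here do not say whether the cells of several mice were pooled in a library. With 1 library per genotype there are no replicates, no test was made, and genotype, library and program version cannot be told apart. All intervals are at 95% and cover counting error only.

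Interferons are secreted proteins that signal through cell-surface receptors and JAK kinases to STAT transcription factors. Type I and III interferons assemble a complex that holds STAT2 and IRF9 on the interferon-stimulated response element of their target genes, whereas type II interferon acts mainly without this complex. The targets include sensors of foreign nucleic acid, enzymes that block viral replication, GTPases that attack vacuoles, and the machinery of antigen presentation. Goblet cells differ from other gut cells in the mucus they secrete, built on the mucin Muc2 and folded and linked in a large endoplasmic reticulum.

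The response element is shown first, because it is shared by many of the selected genes and was not used to select cells. Its core was searched as GAAA, 2 bases of any kind, then GAAA, on either strand, in the 250 bases before each RefSeq gene start (GRCm38.p6), and matches may overlap. It was present in 936 of 27025 genes (3.46%). Of the 7 selecting interferon genes with a promoter in the table, 5 held it (71.4%), and these 5 are printed with 20 bases on either side (9 after the last match of Ddx60, where the gene starts), together with Ifit1bl1 and Stat2, described later. Each is given 5′ to 3′ on the strand of its gene, with the matches in capitals, which in the opposite orientation read as TTTC runs.
Isg15: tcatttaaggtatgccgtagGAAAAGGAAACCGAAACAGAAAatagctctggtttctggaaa
Ifit1: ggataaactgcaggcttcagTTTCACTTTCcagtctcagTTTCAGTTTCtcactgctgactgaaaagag
Rsad2: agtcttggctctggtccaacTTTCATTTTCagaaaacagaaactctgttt
Ddx60: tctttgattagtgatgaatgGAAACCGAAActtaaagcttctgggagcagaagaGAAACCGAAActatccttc
Oas3: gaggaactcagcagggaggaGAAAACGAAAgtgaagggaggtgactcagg
Ifit1bl1: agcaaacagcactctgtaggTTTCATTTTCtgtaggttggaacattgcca
Stat2: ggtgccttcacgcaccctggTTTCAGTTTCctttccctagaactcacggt

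These stretches lie at chr4:156200855-156200916 (minus strand, Isg15), chr19:34640765-34640833 (plus, Ifit1), chr12:26456543-26456592 (minus, Rsad2) and chr8:61928014-61928086 (plus, Ddx60). The other three lie at chr5:120777705-120777754 (minus, Oas3), chr19:34602043-34602092 (minus, Ifit1bl1) and chr10:128270256-128270305 (plus, Stat2). All are upstream of the annotated gene start. Isg15 held 3 overlapping matches between 56 and 78 bases before the start, and Ddx60 and Ifit1 held 2 each. No match was found in the windows of Oasl2 and Ifi44, and Usp18 was not in the promoter table. Among interferon genes that did not select cells, 24 of 65 held the core (36.9%), with 9 of 10 guanylate-binding proteins and IRG GTPases (90%), 12 of 39 antiviral effectors (30.8%), 3 of 8 signalling genes (37.5%) and 0 of 8 sensors. Goblet genes outside the rule held it in 2 of 42 (4.76%). A match describes the letters of the window and is not evidence of binding.

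The selected cells had the depth of ordinary goblet cells or somewhat more. Their median was 17255 UMIs and 3340 genes in WT and 19796 UMIs and 3777 genes in MG53-TG, against 14879 and 18274 UMIs in the other goblet cells, those with 0 to 3 of the 8 genes. Mitochondrial UMIs had a median of 3.38% and 3.08%, against 3.72% and 3.18% in the others. Summed over cells, 2410788 WT and 5636452 MG53-TG UMIs came from the selected cells, and a level in CPM is the UMIs of a gene scaled to 1e+06 UMIs of those cells. No selected barcode and no goblet barcode occurred in both libraries (8 of all kept barcodes did).

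Goblet genes that the rule did not use were compared with kept cells outside the goblet gate, whose median depths were 14016 and 17863 UMIs. A UMI in nearly every cell does not show identity by itself, since enterocyte and Paneth markers also had one in 100% of the selected cells, and levels are therefore given too. Spink4, a secreted goblet peptide, had a UMI in 100% of selected WT and 99.6% of selected MG53-TG cells, at 19935 and 23541 CPM, against 81.9% and 86.8% at 4375 and 5356 CPM outside. Agr2, the disulfide isomerase needed to fold Muc2, was in 99.2% and 100% at 8195 and 11982 CPM, against 37.4% and 50.7% at 333 and 619 CPM. The secretory fate factor Atoh1 was detected in 82.3% and 92.9%, against 8.19% and 10.2%, and Spdef, which drives goblet maturation, in 72.6% and 83.2%, against 7.87% and 10.98%. All 4 were thus at higher levels in the selected cells. The labels were checked on the transgene. Trim72 had 0 UMIs in the selected WT cells and 282 in the selected MG53-TG cells, where it stood at 50.03 CPM in 45.9% of cells, at least 40.2-fold higher than the limit of 1.24 CPM that 3 UMIs over all selected WT cells would give. The other goblet cells had 0.923 (WT) and 44.7 CPM (MG53-TG).

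The 8 selecting genes divided the goblet cells unevenly. None of the 8 was seen in 924 of the WT goblet cells and in 705 of the MG53-TG goblet cells, and all 8 in 3 and 13 cells. Just inside the threshold, 64 WT and 135 MG53-TG cells had exactly 4 genes, with a median of 8 UMIs of the 8 genes together in each library and 453 and 419 CPM. Just outside, 126 and 194 cells had 3 genes, with 4 and 5 UMIs and 270 CPM in both libraries. On the goblet side, 2 selected cells of each library lay between 1% and 2% of goblet UMIs, and 3 WT and 5 MG53-TG cells with 4 interferon genes lay between 0.5% and 1%. The distribution had no gap at the threshold.

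**Figure D1:**
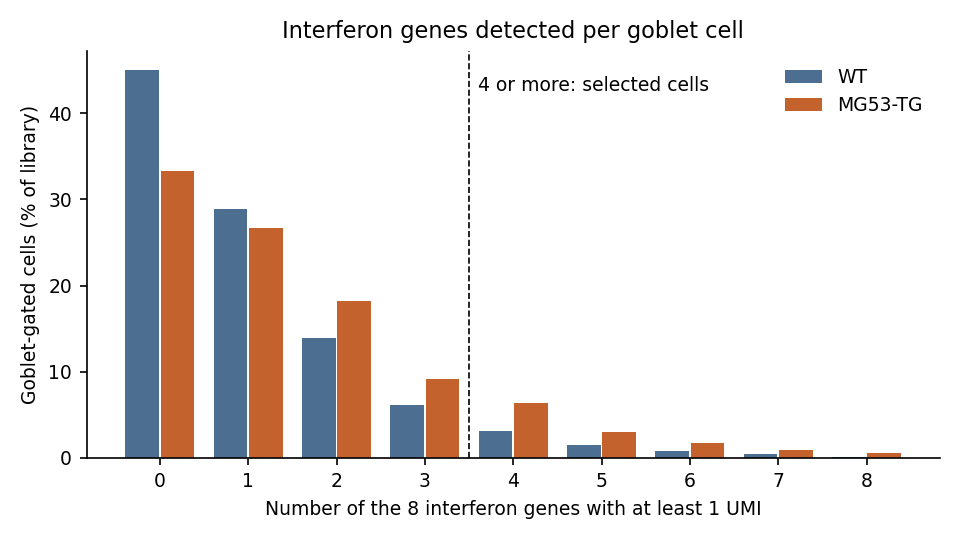
Bars show the share of each library's goblet-gated cells (percent, vertical axis) by the number of the 8 interferon genes with at least 1 UMI (horizontal axis), WT in blue and MG53-TG in orange. The dashed line is the threshold of 4 genes. Both libraries fall off without a gap, and MG53-TG has the larger share at every number from 2 up.

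Among the selecting genes, Ddx60, an RNA helicase that assists RIG-I-like sensors, was the most abundant, at 265 CPM in WT (245 to 286) and 266 CPM in MG53-TG (253 to 280), against 39.1 and 47.2 CPM in the other goblet cells. Isg15, a ubiquitin-like protein conjugated to viral and host proteins, was at 156 and 137 CPM, against 9.63 and 11.9 CPM. Oasl2, a ubiquitin-like relative of the oligoadenylate synthetases, was the one most often still seen in the others after Ddx60, in 20.9% and 30.4% of them. Ifit1, which binds RNA with a foreign cap, was at 86.7 and 64.8 CPM, and fewer selected cells held it than Isg15 (53.2% and 41.8% against 82.3% and 81.0%).

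The rarer selecting genes are given as levels in both libraries. Ifi44, a cytoplasmic interferon-induced protein, was at 21.6 CPM (16.1 to 28.3) in WT and 39.4 CPM (34.4 to 44.9) in MG53-TG. Rsad2, or viperin, which makes a chain-terminating nucleotide, was at 52.3 and 36.5 CPM, and 1 WT cell held 19.8% of its UMIs. Usp18, the protease that removes Isg15 and damps the receptor, was at 40.7 and 30.5 CPM, and Oas3, which makes the activator of RNase L, at 56.0 and 59.8 CPM.

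**Figure D2:**
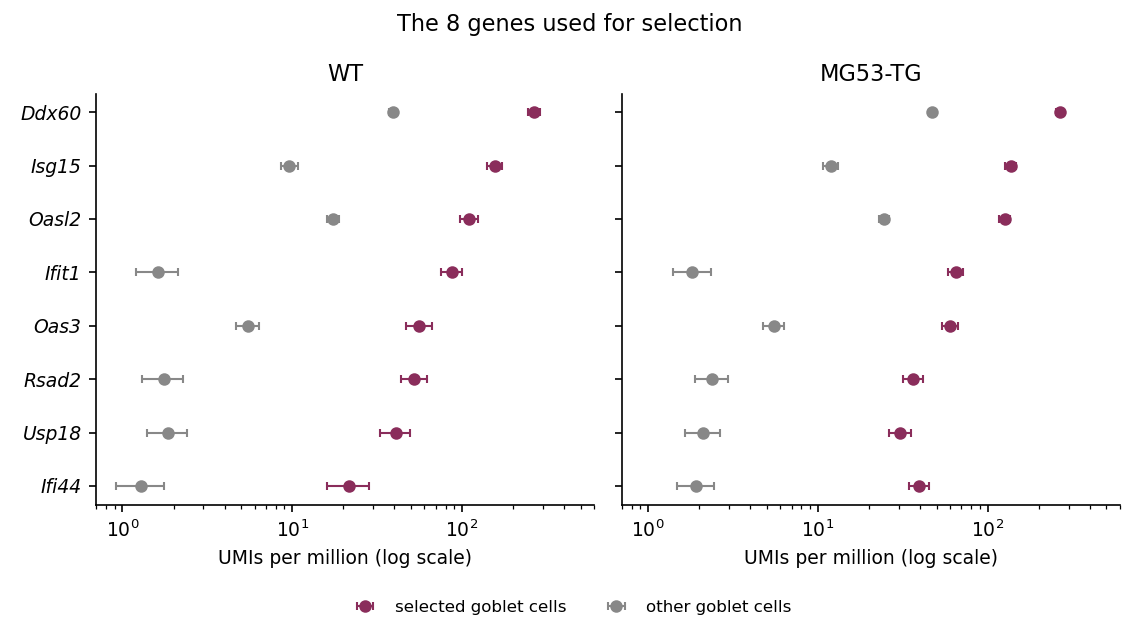
Points are the levels of the 8 genes that chose the cells, in CPM on a log axis, in selected goblet cells (purple) and in other goblet cells (grey), one panel per library; bars are exact Poisson intervals. Every gene lies higher in the selected cells because it chose them, with Ddx60 highest and Ifi44 lowest in WT.

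The 5 mucus genes used for the goblet gate were also higher in the selected cells than in the other goblet cells, although the rule asked only for 1% in both. Zg16, a lectin that binds Gram-positive bacteria, stood at 95284 and 75092 CPM, against 50922 and 52772 CPM. Clca1, a metalloprotease that loosens mucus, was at 11703 and 11759 CPM, against 6097 and 7765 CPM. Muc2 was at 12864 and 11484 CPM against 9088 and 8520 CPM. Per cell, the 5 genes had a median of 18.8% and 17.2% of UMIs, against 11.7% and 12.2%. Fcgbp, which crosslinks mucus, and Tff3, a trefoil peptide, were higher by less than these.

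The share of goblet cells that passed the interferon gate was larger in the MG53-TG library. It was 6.04% in WT (exact Clopper-Pearson interval 5.05 to 7.16) and 12.6% in MG53-TG (11.3 to 14.1), a difference of 6.61 percentage points (Newcombe interval 4.86 to 8.37) and a ratio of 2.09 (Katz interval 1.71 to 2.57). Depth enters such a count, since a deeper cell shows more genes. With each cell thinned to 10000 UMIs (552 WT and 312 MG53-TG goblet cells were shallower and left out), the shares were 2.998% and 6.42%, a ratio of 2.14 (1.53 to 3.0004). At 5000 UMIs, with 200 and 163 cells left out, they were 1.94% and 3.27% (1.68, 1.13 to 2.52). At the UMI minimum of the cell filter, 6 WT and 10 MG53-TG cells passed, and the ratio of 1.61 had an interval of 0.588 to 4.43, in which no difference was detectable at this depth.

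Goblet cells were not alone in passing the gate. Outside them, 150 WT cells (2.80%) and 258 MG53-TG cells (8.50%) had at least 4 of the 8 genes, a ratio between libraries of 3.03 (2.49 to 3.69). Classes were set by marker genes. Most of these cells were enterocytes, the absorptive cells (88 and 165 cells), or tuft cells, the chemosensory cells (16 and 57). The goblet share exceeded that of all other cells 2.15-fold in WT (1.71 to 2.72) and 1.49-fold in MG53-TG (1.27 to 1.75). Thinned to 10000 UMIs the ratios were 1.84 (1.24 to 2.73) and 1.32 (1.02 to 1.71), but at 5000 UMIs the MG53-TG ratio was 0.882 (0.644 to 1.21), so its direction there depended on the depth. Cells shallower than each depth were left out, so the cells compared changed with it.

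At 10000 UMIs the enterocyte shares, 3.599% and 7.52%, lay close to the goblet shares with overlapping intervals. This depended on the depth and the cells deep enough for it in MG53-TG, where 7.42% of enterocytes (5.78 to 9.34) and 3.27% of goblet cells (2.53 to 4.16) passed at 5000 UMIs, and 1.67% and 0.472% at the UMI minimum of the cell filter, without overlap of the intervals. Too shallow for 5000 and 10000 UMIs were 191 and 350 of 1081 MG53-TG enterocytes, and 485 and 696 of 1474 in WT. The 2 effects were not told apart. In WT the enterocyte share at 5000 UMIs was 2.63% (1.72 to 3.83) and that of goblet cells 1.94% (1.36 to 2.68). At 10000 UMIs tuft cells reached 4.38% and 11.95%, Paneth cells (the antimicrobial cells of the crypt base) 1.54% and 1.82%, and enteroendocrine cells 1.86% and 6.12%. Cycling cells were lowest of the epithelial classes, at 0.329% and 0.210%. Of the leukocytes left in the sort, 3 WT and 1 MG53-TG cells passed without thinning (0.378% and 0.311%), at median depths of 2852 and 3494 UMIs, and 0 of the 38 and 7 deep enough passed at 10000 UMIs.

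**Figure D3:**
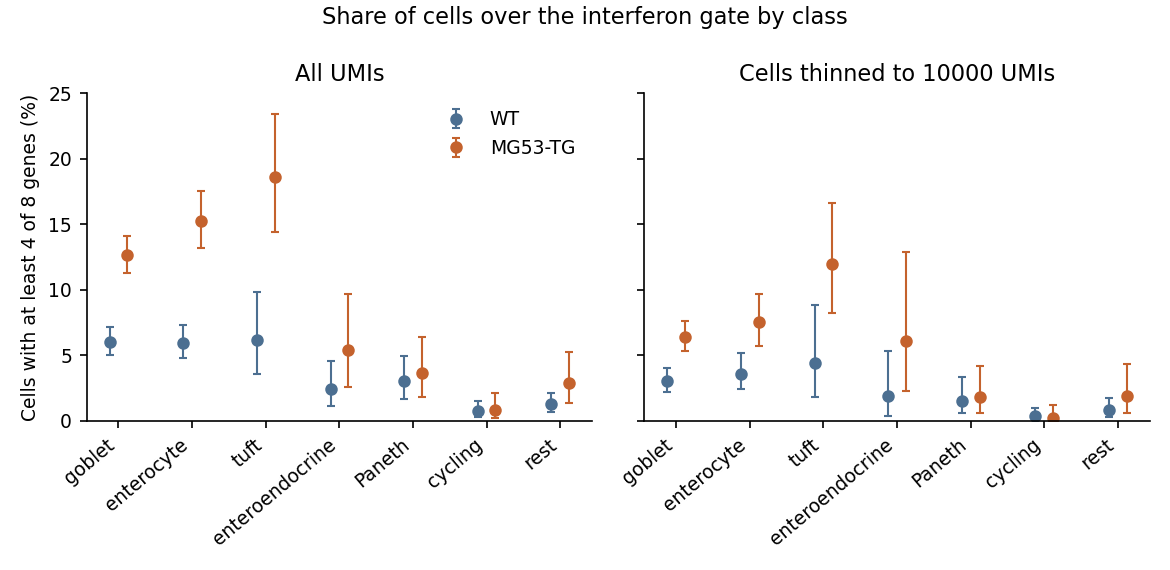
Points are the percent of cells with at least 4 of the 8 interferon genes in each marker-defined epithelial class (leukocytes are not plotted), WT in blue and MG53-TG in orange, with all UMIs (left) and with cells thinned to 10000 UMIs (right); bars are exact binomial intervals. At these depths goblet cells and enterocytes lie close together in both libraries, tuft cells of MG53-TG lie highest, and cycling cells lie lowest of the classes plotted.

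RNA of the interferons themselves was scarcely present. Of 19 type I and III interferon genes in the files, only Ifne and Ifnk had any UMI in kept cells, 2 in WT and 1 in MG53-TG, and none of the 19 had one in a selected cell. Ifng, the type II interferon, had 30 and 19 UMIs, of which 26 and 15 lay in leukocytes and 0 in selected cells. Receptors and kinases were no higher by 2-fold than in other goblet cells in either library (0 of 9 and 0 of 9, medians of 0.20 and 0.15 as log2 ratios). Ifnar1, a chain of the type I receptor, was at 14.9 CPM in the selected cells of both libraries, against 14.999 and 15.8 CPM. Ifnlr1, the specific chain of the type III receptor, was at 6.64 CPM (against 4.05) and 4.61 CPM (against 4.30), and Ifngr1, the type II receptor, at 141 CPM (against 111) and 143 CPM (against 129).

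For all other genes, selected and other goblet cells were compared within each library, on summed UMIs, as a log2 ratio with 1 CPM added to both levels. A gene counts as higher or lower where it passed 2-fold and the exact conditional binomial interval of its ratio, computed without the added CPM, left out equality. Of 10572 genes with at least 2 CPM over both sets of cells together in WT, 219 were higher (2.07%) and 298 lower (2.82%). In MG53-TG, 148 (1.41%) of 10478 were higher and 97 (0.926%) lower. The median over all genes was -0.17 in WT and -0.08 in MG53-TG. When libraries were scaled by the median of ratios in place of total UMIs, 287 were higher and 207 lower in WT, so that the lower calls no longer outnumbered the higher ones there, and 163 and 82 in MG53-TG. Of 10351 genes compared in both libraries, 112 were higher in both, 22 lower in both and 9 in opposite directions.

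Interferon genes that had not selected the cells were higher with those that had. Of 68 compared in WT, 33 were higher and 1 lower, with a median log2 ratio of 0.998 and 65 above 0. Of 70 in MG53-TG, 39 were higher and none lower, with a median of 1.16 and 67 above 0. Together they took 5520 CPM of the selected cells and 3138 CPM of the others in WT, and 6443 and 3527 CPM in MG53-TG, and 32 genes were higher in both libraries. The promoter core was present in 13 of 25 of these 32 that had a searched promoter (52.0%). Among those compared but not higher in both it was present in 4 of 30 (13.3%). Some of the genes with the core were guanylate-binding proteins and IRG GTPases, a family that held it in 9 of 10. Every compared member of this family was higher, so the family could add only to the 52.0%. A gene low in other goblet cells could be compared only by being high in selected cells. The part of the filter and of this family in the difference between the shares was not tested. The interferon genes were compared in the cells that the 8 selecting genes had picked. Their counts thus describe how far the response extends and are no independent evidence of it.

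The sensors had the lowest medians of the 4 groups of interferon genes, 0.70 in WT and 0.75 in MG53-TG. In WT 2 of 10 were higher and in MG53-TG 4 of 10. Zbp1, a sensor of Z-form nucleic acid that can trigger cell death, was at 98.7 CPM against 40.8 CPM in WT and 103 against 49.7 CPM in MG53-TG (log2 ratios 1.26 and 1.03). Dhx58, a regulator of RIG-I-like sensors, had log2 ratios of 1.69 and 1.70 at 14.5 and 13.5 CPM. Ifih1 (MDA5) was higher by the 2-fold rule in MG53-TG (81.6 against 39.2 CPM) and not in WT (56.4 against 33.4 CPM), as was Ddx58 (RIG-I), at log2 ratios of 1.05 and 0.998. The difference between the libraries in these calls was not tested.

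Of the signalling genes that carry and renew the response, 5 of 10 were higher in WT and 6 of 10 in MG53-TG. Irf7, the factor that amplifies interferon output, was at 117 CPM against 37.2 CPM in WT and 121 against 34.3 CPM in MG53-TG, in 83.1% and 82.5% of selected cells. Stat2, which forms the response element complex with Irf9, was at 51.9 against 18.8 CPM and 73.8 against 24.8 CPM, with log2 ratios of 1.42 and 1.54. Irf9 itself did not pass 2-fold (0.71 and 0.68). Irf1, a transcription factor strongly induced by type II interferon, was at 77.98 against 59.1 CPM and 80.9 against 69.4 CPM, with log2 ratios of 0.39 and 0.22. Among those higher were Parp9 and Parp14, ADP-ribosyltransferase family members.

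Antiviral effectors were the largest group, with 19 of 41 higher and 1 lower in WT and 20 of 41 higher in MG53-TG. Ifit1bl1, a relative of Ifit1, had the largest log2 ratio, at 79.6 CPM against 3.36 CPM in WT (4.21) and 63.7 against 6.18 CPM in MG53-TG (3.17), but only 31.5% and 31.0% of selected cells held it and 1 cell gave 16.1% and 18.9% of its UMIs. Rtp4, which inhibits viral replication, was at 41.9 against 6.86 CPM and 48.1 against 9.89 CPM. Trim30a had log2 ratios of 3.07 and 2.72, and Slfn5, of the Schlafen family, 2.50 and 3.04, both from levels of 25.9 CPM or less, and Slfn5 was no longer among the higher genes of WT without cells of another lineage. Rnf213, a large ubiquitin ligase that coats intracellular bacteria, was at 84.6 against 28.4 CPM (log2 ratio 1.54) and 114 against 33.4 CPM (1.74), and Oasl1, which limits Irf7 translation, at 80.1 against 21.7 CPM and 68.5 against 21.9 CPM. The most abundant effector, Ifi27l2b, was at 1761 against 1090 CPM and 2187 against 1279 CPM, below 2-fold. Reads of close relatives such as the Trim30, Oas1, Ifi27l2 and Gbp genes may be divided between copies, and their single values are uncertain.

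Guanylate-binding proteins and IRG GTPases, which act on vacuoles of pathogens and respond to both type I and type II interferon, were higher in every case that could be compared, 7 of 7 in WT and 9 of 9 in MG53-TG, of 15 listed. Gbp2 was at 34.0 against 2.97 CPM in WT and 21.5 against 5.24 CPM in MG53-TG. Igtp had log2 ratios of 1.95 and 1.57, and Irgm1 1.22 and 1.08. Those not compared were below 2 CPM over both sets of cells together, and a gene low in other goblet cells could pass that filter only by being high in selected cells, so these counts are no measure of the family. Tgtp1, a relative of Irgm1, was at 0 and 0.710 CPM in selected cells, against 0.264 and 0.353 CPM.

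**Figure D4:**
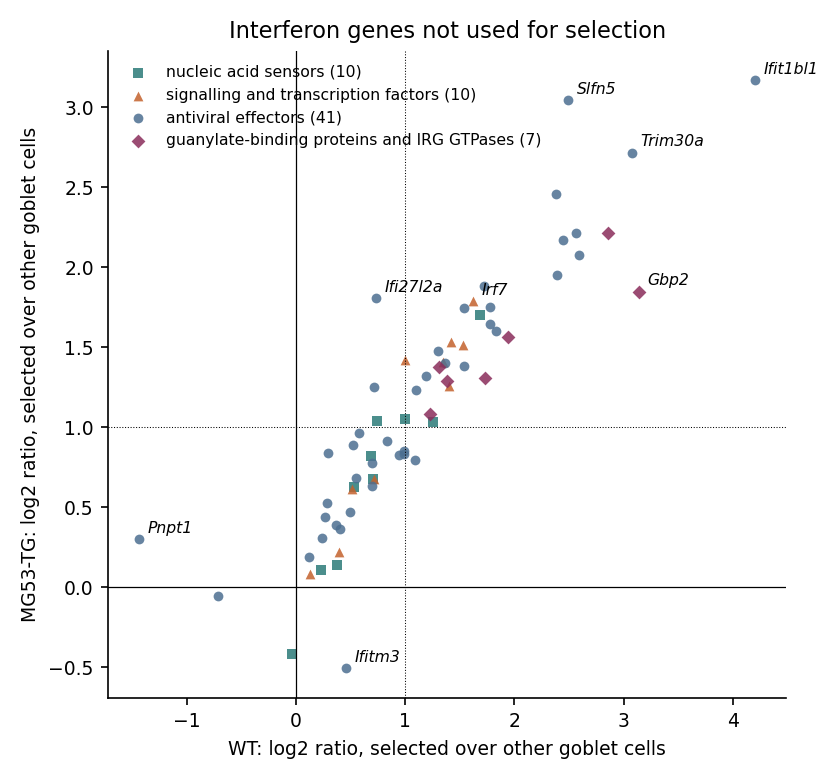
Each point is an interferon gene that did not choose cells and was compared in both libraries, by its log2 ratio of selected over other goblet cells in WT (horizontal) and MG53-TG (vertical); colours and marks give the 4 groups with their number of genes, and dotted lines stand at 2-fold. Most points lie in the upper right, with Ifit1bl1 farthest out, and Pnpt1 and Ifitm3 have opposite signs in WT and MG53-TG.

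Ido1, which breaks down tryptophan and is a known interferon target, was not on these lists and was among the highest genes outside them. It stood at 237 (WT) and 176 CPM (MG53-TG), against 56.8 and 50.5 CPM (log2 ratios 2.04 and 1.78), and was seen in 35.5% and 22.01% of selected cells. Cxcl16, a transmembrane chemokine, had log2 ratios of 1.45 and 0.96. Levels of the interferon genes differed between selected cells. Their sum ran from 1797 to 15517 CPM over the WT cells and from 2614 to 28481 CPM over the MG53-TG cells. It was 4432 CPM in WT cells with 4 selecting genes and 6373 CPM in those with 6, and 5596 and 7950 CPM in MG53-TG. The sum did not rise throughout. With 7 and 8 genes it was 11996.5 and 10032 CPM in WT (9 and 3 cells), and 7052 and 9805 CPM in MG53-TG (20 and 13 cells). Below the threshold it was already graded, from 2665 CPM in WT cells with none of the 8 genes to 4129 CPM in those with 3, and from 2828 to 4985 CPM in MG53-TG.

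Of the class I and loading genes of antigen presentation, 3 of 17 were higher in WT and 2 of 17 in MG53-TG, beside 2.07% and 1.41% of all genes. Tap1, a chain of the peptide pump, was at 60.6 against 26.8 CPM in WT and 81.6 against 35.0 CPM in MG53-TG (log2 ratios 1.15 and 1.20). With it, H2-Q1 was higher in both libraries and H2-Q6 in WT, but without cells of another lineage Tap1 alone passed. B2m, the light chain, was at 572 against 400 CPM and 613 against 408 CPM, and H2-K1, a classical heavy chain, at 747 against 541 CPM and 735 against 551 CPM. None of 5 immunoproteasome genes passed 2-fold in either library. Psmb8, one of its catalytic subunits, had log2 ratios of 0.53 and 0.42. None of 7 class II genes passed either, with Cd74, the invariant chain, at 377 against 268 CPM and 250 against 195 CPM. The median class II log2 ratios, 0.42 and 0.31, became -0.23 and -0.22 when cells with markers of another lineage were left out.

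Genes that direct or serve mucus secretion differed little between selected and other goblet cells. None of 11 transcription factors and none of 21 mucin assembly and endoplasmic reticulum genes passed 2-fold in either direction or library. Their medians were -0.28 and -0.27 in WT and -0.14 and -0.05 in MG53-TG, near those of all genes. Spdef was at 103 against 128 CPM and 121 against 134 CPM, and Klf4, a factor of mature goblet cells, at 492 against 458 CPM and 573 against 540 CPM. Agr2 was at 8195 against 10489 CPM and 11982 against 13544 CPM.

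Few genes of secreted cargo passed 2-fold. Of 27 cargo genes, 2 were higher and 2 lower in WT, and 1 higher and 2 lower in MG53-TG. Of all genes, 2.07% were higher and 2.82% lower in WT, and 1.41% and 0.926% in MG53-TG. Muc3, a membrane mucin of the apical surface, was at 218 against 71.8 CPM in WT and 93.1 against 32.3 CPM in MG53-TG (log2 ratios 1.59 and 1.50). Lypd8, which holds flagellated bacteria away from the epithelium, did not pass 2-fold, at 7220 against 4782 CPM and 6862 against 4930 CPM. Reg4, a lectin found in enteroendocrine and goblet cells, was lower, at 12.4 against 119 CPM in WT and 25.2 against 52.1 CPM in MG53-TG. Without cells that carried markers of another lineage its log2 ratio went from -3.16 to -1.41 in WT and from -1.02 to -0.08 in MG53-TG. Retnlb, an antibacterial goblet peptide, was at 61.8 against 255 CPM in WT (log2 ratio -2.03) and 219 against 164 CPM in MG53-TG (0.42), and at most 28.0% of selected cells held it in either library.

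Some absorptive genes were higher in the selected cells. All 12 brush border genes lay above 0 in both libraries, 5 passed 2-fold in WT and 4 in MG53-TG, and the medians were 0.83 and 0.80. Of all genes, 2.07% and 1.41% were higher. Anpep, an aminopeptidase, was at 212 against 61.0 CPM and 112 against 37.5 CPM. It was held by 27.4% and 24.3% of selected cells. Krt20, a keratin of surface epithelium, was at 583 against 285 CPM in WT and 407 against 268 CPM in MG53-TG, in 97.6% and 97.0% of selected cells. Enterocyte markers had medians of 1.16 and 0.70 with 4 of 7 and 2 of 7 higher, and their 3 highest WT cells held 45.5% of the UMIs.

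These absorptive ratios moved with cells that carried markers of another lineage. Such cells, by bars on leukocyte, tuft, enteroendocrine, cycling and enterocyte markers, were 22 of the selected WT cells (17.7%) and 30 of the selected MG53-TG cells (11.2%), and 13.2% and 6.43% of the other goblet cells. Enterocyte markers reached 1% of UMIs in 13 and 19 selected cells. With all of them left out, brush border medians were 0.15 and 0.38 and no brush border gene passed 2-fold, while the interferon genes kept medians of 1.07 and 1.14. With the highest doublet scores left out instead, the brush border and enterocyte medians of WT were 0.84 and 1.48, with 5 of 12 and 5 of 7 genes still higher, and those of MG53-TG were 0.52 and 0.31, with none higher. These scores fell more often in selected cells, in 18.5% of WT and 8.58% of MG53-TG against 12.7% and 6.21% of the others. The median cell, on which single cells have little weight, had 1594 against 1193 CPM of brush border genes in WT and 1431 against 1063 CPM in MG53-TG. The part of doublets or free RNA in these values was not tested.

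Split the other way, the share of goblet cells passing the interferon gate was larger where brush border RNA was higher. With all goblet cells split at 945 and 1420 CPM of brush border genes, it was 3.67%, 4.07% and 9.71% in WT and 5.10%, 12.8% and 21.6% in MG53-TG, from the lowest cells to the highest. The cells highest in brush border RNA were not the deepest, with medians of 12376 and 16039 UMIs. Thinned to 5000 UMIs the order was kept, at 0.847%, 1.11% and 3.797% in WT and 0.693%, 2.73% and 7.06% in MG53-TG. In WT the lowest and the middle cells had overlapping intervals.

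**Figure D5:**
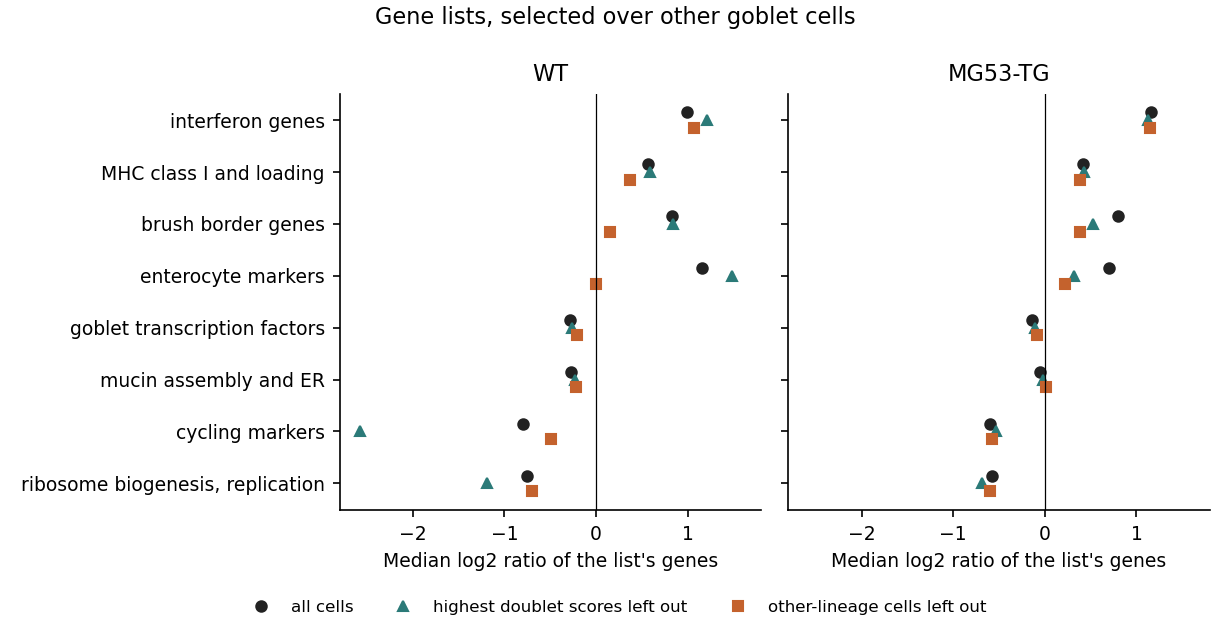
Symbols are the median log2 ratio of a list's genes, selected over other goblet cells, with all cells (black circles), without the highest doublet scores (green triangles) and without cells that carry markers of another lineage (orange squares), one panel per library. The interferon list stays near 1 in all cases. Brush border and enterocyte lists move toward 0 without cells of another lineage (a choice that itself used enterocyte markers) but in WT not without the highest doublet scores. Cycling and ribosome biogenesis lists stay below 0, the latter list written after values had been seen.

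The leading genes that were high in both libraries were of these kinds. By a rule of level and size, 15 were picked, among them the interferon genes Ifit1bl1, Oasl1, Irf7, Rnf213, Parp14 and Stat2, already given, with Ido1 and Muc3. Also among them were Anpep, Clca4b, Selenop, Spink1 and Fabp6, genes of absorptive or surface cells. Without cells of another lineage Anpep (0.18 and 0.42), Clca4b (-0.19 and 0.043) and Spink1 (0.65 and 0.73) no longer passed 2-fold in either library. Selenop, the selenium carrier, was at 418 against 128 CPM in 79.8% of selected WT cells and 226 against 88.6 CPM in 69.8% of selected MG53-TG cells. Its log2 ratios of 1.70 and 1.34 became 0.68 and 0.59, below 2-fold, without cells of another lineage. Fabp6, the ileal bile acid binder, was at 504 against 99.9 CPM and 163 against 34.7 CPM, but only 6.34% of selected MG53-TG cells held it and 1 of them had 53.1% of its UMIs. The MG53-TG log2 ratio of Fabp6, 2.20, turned to -1.86 without cells of another lineage.

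Of the 22 genes lower in both libraries, hormone genes of enteroendocrine cells had the largest ratios. Another hormone gene, Gip, was instead higher in WT, at 814 against 105 CPM, with 91.9% of its UMIs in 1 selected cell. In MG53-TG it was at 9.23 against 20.6 CPM. Ghrl, which encodes ghrelin, was at 4.98 against 107 CPM in WT and 1.60 against 141 CPM in MG53-TG, and Cck, which encodes cholecystokinin, at 4.56 against 65.4 CPM and 1.60 against 160 CPM (both named after their values were seen). The medians of the enteroendocrine markers, -0.60 in WT and -2.97 in MG53-TG, became -0.027 and 0.00049 without cells of another lineage, which had been marked partly by these genes. Such cells with at least 3 enteroendocrine markers were 129 (6.69%) of the other goblet cells in WT and 41 (2.22%) in MG53-TG, and 8 (6.45%) and 11 (4.10%) of the selected cells. Among the 15 lowest genes picked by the rule of level and size, Rnase1, a secreted ribonuclease, had the largest ratio when the library nearer to 0 was taken, at 43.6 against 131 CPM in WT and 54.6 against 178 CPM in MG53-TG (log2 ratios -1.56 and -1.68). All 11 ribosome biogenesis and replication genes lay below 0 in both libraries, with medians of -0.76 and -0.58, though 3 and 1 passed 2-fold and none did so in both. This list was written after values had been seen. Nop58, a core protein of small nucleolar ribonucleoproteins, was at 33.2 against 70.3 CPM and 43.5 against 71.3 CPM, and Npm1, a nucleolar chaperone, at 402 against 636 CPM and 434 against 595 CPM. All 8 cycling markers lay below 0, and 2 were lower by 2-fold in each library, different ones in WT (Mki67, Top2a) and MG53-TG (Mcm5, Stmn1). Of all genes, 2.82% and 0.926% were lower. Without the highest doublet scores 6 cycling markers were lower in WT and 1 in MG53-TG. The lower genes over all then went from 298 to 711 in WT and from 97 to 118 in MG53-TG. Hist1h1b, a linker histone of dividing cells, had log2 ratios of -2.03 and -1.10 and was seen in 4.84% and 4.85% of selected cells. Ccl9, a chemokine, was at 258 against 472 CPM and 259 against 474 CPM.

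Between genotypes, the selected cells differed in 170 genes higher in MG53-TG (1.64%) and 159 lower (1.54%) of 10353, and the median over all genes was 0.10. Scaled by the median of ratios, 121 were higher and 194 lower, so the larger side depended on the scaling. Among 75 interferon genes compared, 3 were higher and 2 lower, with a median of 0.20. Isg20, an exonuclease, was at 5.39 (WT) and 12.8 CPM (MG53-TG), and Ifi27l2a at 7.88 and 31.2 CPM. Pnpt1, a mitochondrial RNA exonuclease, was at 2.90 and 10.6 CPM. Ifitm3, which blocks viral entry, was at 75.9 (WT) and 35.3 CPM (MG53-TG) and no longer lower without the highest doublet scores, and Socs1, the feedback inhibitor of JAK kinases, at 4.98 and 0.887 CPM. All of these cells had been selected on interferon genes, and with 3 and 2 of 75 genes the counts are near the shares over all genes.

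After Trim72, the genes with the largest ratios toward MG53-TG that the rule of level and size picked were Retnlb (log2 ratio 1.81), Mki67 (1.68) and Top2a (1.43). Both of the latter mark dividing cells, and the highest WT cell of each gene held 41.7% and 43.1% of its UMIs. The 8 cycling markers together had a median of 0.016, with 4 above 0 and Mcm5 lower (-1.01), but without the highest doublet scores the median was 1.88 with 5 higher. Of 11 genes of the endoplasmic reticulum stress and amino acid response, 1 was higher, Asns. This gene, asparagine synthetase, was at 86.7 (WT) and 175 CPM (MG53-TG) (log2 ratio 1.003, interval 0.80 to 1.23), and no longer passed when scaled by the median of ratios (0.90) or without the highest doublet scores (0.992). Mthfd2, a mitochondrial folate enzyme, was at 35.3 and 69.2 CPM, and Hyou1, a chaperone of the endoplasmic reticulum, at 30.3 and 59.8 CPM, both below 2-fold. The other goblet cells had log2 ratios of 0.78, 0.79 and 0.68 for Asns, Mthfd2 and Hyou1 between libraries. Hspa5, the main chaperone of that compartment, was at 520 and 850 CPM (0.71), against 0.47 in the other goblet cells. Atf5, Kit and Mgll had log2 ratios of 0.87 to 0.99.

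Among the 10 lowest genes in MG53-TG by the rule of level and size were several of other lineages, with UMIs held by few WT cells. Gip, Sst and Chgb, made by enteroendocrine cells, had log2 ratios of -6.32, -4.83 and -4.87. The highest WT cell of each gene held 91.9%, 91.6% and 69.5% of its UMIs. S100g, a calcium binder of enterocytes (-3.74), had 97.7% of its UMIs in 1 WT cell. Ccl5 and Gzma, made by cytotoxic lymphocytes (-6.44 and -6.42), had 41.3% and 39.7% in the highest cell of each gene. At least 4 leukocyte markers were held by 4 selected WT cells and 0 selected MG53-TG cells. Olfm4 (-4.01), Saa1 (-1.98) and Apoa4 (-1.79) had 29.8% to 35.8% in the highest cell of each gene. Gm14851, a member of the defensin family with near-identical copies, had -2.55, close to the -2.19 of other goblet cells. Without cells of another lineage, the ratios of S100g, Apoa4 and Chgb turned to 1.39, 0.20 and 0.02, those of Gip and Sst became -0.83 and -1.45, and Ccl5 (-4.44), Gzma (-4.49), Olfm4 (-3.95), Gm14851 (-2.55) and Saa1 (-1.79) stayed lower. Without the highest doublet scores Olfm4 was at -1.14, Saa1 at -1.07, Gip at -0.66, Sst at -1.61 and Chgb at -0.17. Over all genes, leaving out cells of another lineage gave 82 in place of 159 lower in MG53-TG and 223 in place of 170 higher. Leaving out the highest doublet scores gave 161 lower and 357 higher. Muc3 had -1.22 in selected cells and -1.13 in the others.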

How the data were processed

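Sorted crypt cells were captured in droplets (10x Genomics 3′ chemistry). The deposited tables hold unscaled counts of UMIs for each gene and barcode that the authors made on mm10. Per the file headers, the programs were Cell Ranger 4 for WT (2005718 barcodes, empty droplets included) and cellranger 6.0.1 for MG53-TG (12361 barcodes, each with at least 500 UMIs), whereas the labels name Seurat without a version. Every column of values was matched to a sample, and 5 listed genes were not found by symbol.

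Barcodes were kept from 1354 UMIs and 200 genes up, with mitochondrial UMIs of 25% or less. The members and the gene lists were chosen with earlier results of these data known. UMIs were summed over cells. Ratios had 1 CPM added and were formed for genes with at least 2 CPM over both groups together. Intervals were exact (Poisson, Clopper-Pearson, conditional binomial), Newcombe for differences of shares and Katz for their ratios. Thinning drew UMIs without replacement 20 times and the median count was used. Scrublet (scanpy 1.11.5) marked 0.0135% and 0.0388% of cells as doublets by its own threshold, which had thus not worked, so doublets were kept in the main values and the highest scores, 0.8% of cells per 1000 cells, were left out as an alternative (5.92% and 4.11% of cells). Genes were named from the lists, the 15 highest and 15 lowest in both libraries with at least 30 UMIs and 50 CPM, and the 10 highest and 10 lowest between genotypes. Some items are not reported here. Other alternatives changed the added CPM, filters, scaling, gates and depth. Python 3.11.15, numpy 2.4.6, scipy 1.17.1 and pandas 2.3.3 were used.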

Additional observations from a re-analysis of the deposited data

Results flagged for a closer look

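In 9 genes the selected cells lay on opposite sides of the other goblet cells in the 2 libraries, past 2-fold each way. The difference between libraries was not tested. The lymphocyte genes Ccl5 (log2 ratio 1.60 in WT and -3.81 in MG53-TG), Gzma (1.62 and -4.12), Gzmb (1.24 and -2.33), Cd3g (1.23 and -2.50) and Cd7 (1.61 and -1.73) were seen in 16, 21, 6, 8 and 6 selected WT cells. The enteroendocrine genes Gip (2.95 and -1.08) and Isl1 (1.09 and -1.95) were seen in 31 and 2 selected WT cells. The highest cell of each gene held 91.9% of the Gip UMIs and 84.2% of the Isl1 UMIs. Fabp5, a fatty acid binder (1.05 and -1.58), and Rbp4, the retinol carrier (1.18 and -1.01), were seen in 21 and 5 selected WT cells. The highest cell of each gene held 41.5% and 62.5% of its UMIs.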

How the results depend on the processing

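No paired analysis was possible because each genotype has 1 library, which also means that no replicate could be left out. The ratio of goblet shares between libraries, 2.09, became 1.52 with a gate of 500 CPM on the 8 genes, 1.68 with cells thinned to 5000 UMIs and 1.61 with cells thinned to the UMI minimum of the cell filter. The goblet share over that of other cells became 1.12 in WT and 0.651 in MG53-TG at that minimum, and 0.882 in MG53-TG at 5000 UMIs. The median log2 ratio of interferon genes in MG53-TG was 0.97 with 5 CPM added and 1.43 with at least 5 selecting genes. That of antigen presentation genes was 0.37 in WT without cells of another lineage, and 0.53 in MG53-TG against goblet cells with 0 or 1 selecting genes (0.52 and 0.41 otherwise). Without cells of another lineage, an alternative chosen after seeing the data, the log2 ratio of Clca4b in WT turned to -0.19, that of Fabp6 in MG53-TG to -1.86, and those of Apoa4, Chgb and S100g between genotypes to 0.20, 0.021 and 1.39. For gene lists, the main interval was taken from the medians of the single genes' lower and upper limits and is not an interval of the list median. The other 96 values for whole comparisons kept within their main interval. For single genes 213 values did so, 86 lay outside it and 5 changed sign. Counts of genes past 2-fold moved most. Over the alternatives, genes higher ran from 106 to 329 in WT, 61 to 213 in MG53-TG and 14 to 357 between genotypes, and genes lower from 39 to 711, 18 to 162 and 55 to 267. The causes were not tested. Depth limits the comparison, since at the UMI minimum only 6 and 10 goblet cells passed the gate.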

Other observations

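The 4 antimicrobial lectins lay above 0 in the selected cells, and 1 passed 2-fold in MG53-TG and none in WT. This was Reg1, at 95.5 against 37.5 CPM in MG53-TG (log2 ratio 1.32) and 93.3 against 74.0 CPM in WT. A single MG53-TG cell held 79.2% of its UMIs, and it did not pass there without the highest doublet scores or without cells of another lineage, whereas in WT it passed without the highest doublet scores. Reg3b, a lectin that kills bacteria, was at 10140 CPM against 5429 CPM of the other goblet cells in WT and at 5358 against 3939 CPM in MG53-TG, and Reg3g, its close relative, at 3930 against 3258 CPM and 3335 against 2318 CPM. Neither of these passed 2-fold. In WT 3 selected cells held 33.5% of the lectin UMIs and in MG53-TG 21.9%. Of 21 cell death genes 1 was higher in WT, near the 2.07% of all genes. It was Gsdmd, which forms pores in dying cells, at 68.9 against 31.5 CPM, and at 39.7 against 26.9 CPM in MG53-TG, and it did not pass without the highest doublet scores or without cells of another lineage. Without the highest doublet scores Tnfsf10, Gsdmc2 and Gsdmc4 passed in WT instead, and Gsdmc4 in MG53-TG. The median of the 21 cell death genes was 0.35 in WT and 0.31 in MG53-TG with all cells.

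Tuft markers were higher in 1 of 3 cases in WT and 3 of 3 in MG53-TG, among them Trpm5, the cation channel of taste signalling, at 14.1 against 5.54 CPM and 13.1 against 4.51 CPM. In WT 3 cells held 95.8% of the tuft UMIs and in MG53-TG 84.8%, and none of these markers passed 2-fold without the highest doublet scores or without cells of another lineage. At least 3 tuft markers were held by 2 selected WT and 4 selected MG53-TG cells. Atf3, a stress-induced factor, was at 14.9 against 5.54 CPM and 13.7 against 5.48 CPM, alone among 11 genes of the endoplasmic reticulum stress and amino acid response to pass 2-fold in either library. Nos2, Apol9a and Ly6a, noted after their values were seen, had log2 ratios of 2.10 and 2.25, 2.87 and 2.24, and 1.41 and 2.24.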
